A study of Homo sapiens with 60 samples.

Results

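The genes described here are 8 regulators and feedback genes of the NRF2 pathway, followed through HT29 cells given herbal extracts at 3 doses. They are NFE2L2, KEAP1, MAFG, MAFF, MAFK, BACH1, OSGIN1 and NFE2L1, found in the count table by matching gene symbols to Ensembl identifiers. All 8 were found among 60675 identifiers, and all 8 are among the 16445 genes that passed the filter on low counts and were tested. HT29 is an established human colorectal adenocarcinoma line. RNA was sequenced after 24 h of treatment in 60 libraries of 22 groups. The water extracts Palmul-tang and Sibjeondaebo-tang, formulas of several herbs, were given at 20, 100 and 500 µg/mL. Poria Cocos, Atractylodis Rhizoma and Panax Ginseng, each a 70% ethanol extract, were given at the same doses. The 70% ethanol extract of Glycyrrhizae Radix (licorice) was given at 14, 70 and 350 µg/mL, and that of Angelicae Gigantis Radix at 12.8, 64 and 320 µg/mL. Each dose had 3 libraries, except those of Angelicae Gigantis Radix, which had 1. The vehicle group, 0.1% DMSO per the labels, had 3 libraries. Whether replicates were separate cultures is not stated in the labels, so p-values reflect only library-to-library spread, part of which may be technical.

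NRF2, the protein of NFE2L2, is a transcription factor of the cap'n'collar (CNC) family that switches on genes of antioxidant defence, glutathione synthesis and drug metabolism. In unstressed cells KEAP1 holds NRF2 and presents it to a CUL3 ubiquitin ligase, so that it is degraded as fast as it is made. Electrophiles and oxidants modify cysteines of KEAP1 and let NRF2 accumulate, which means that NRF2 activity is set mainly by protein turnover and not by NFE2L2 mRNA. NRF2 binds antioxidant response elements (AREs) as a dimer with a small Maf protein, MAFG, MAFF or MAFK, and BACH1 occupies many of the same elements as a repressor that heme removes. MAFG and OSGIN1 are themselves known NRF2 targets, and OSGIN1 encodes an oxidative stress induced growth inhibitor. NFE2L1 encodes NRF1, a related factor of the endoplasmic reticulum membrane best known for raising proteasome genes when the proteasome is impaired.

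The windows before the starts of OSGIN1 and MAFG, the feedback genes that rose in most extracts, are shown because both are known NRF2 targets and only one of them holds a match to a motif searched. RefSeq starts on GRCh38.p14 were matched by symbol for 7 of the 8 genes, all but MAFK. The motifs were the ARE core TGACNNNGC and the AP-1 type element TGANTCA, which small Maf dimers can also bind, each searched on both strands in the 250 bases before each start. The OSGIN1 window is chr16:83952990-83953239 on the plus strand, and the MAFG window is chr17:81927736-81927985 on the minus strand. Capitals mark the motif match.
OSGIN1: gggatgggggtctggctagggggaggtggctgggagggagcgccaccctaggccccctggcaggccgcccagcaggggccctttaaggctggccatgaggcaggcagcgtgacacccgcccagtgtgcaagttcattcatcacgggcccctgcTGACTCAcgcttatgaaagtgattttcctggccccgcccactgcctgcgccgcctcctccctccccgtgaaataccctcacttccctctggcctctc
MAFG: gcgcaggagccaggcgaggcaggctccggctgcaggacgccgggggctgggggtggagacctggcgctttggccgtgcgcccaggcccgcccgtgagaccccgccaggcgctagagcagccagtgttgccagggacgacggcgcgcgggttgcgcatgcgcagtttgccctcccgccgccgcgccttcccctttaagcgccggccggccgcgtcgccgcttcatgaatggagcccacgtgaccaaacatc

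OSGIN1 held the AP-1 type element TGACTCA at positions -97 to -91 before its start and no ARE core in this window. BACH1 held the AP-1 type element TGAGTCA at -48 to -42. KEAP1 held the ARE core TGACACGGC at -54 to -46 and, read on the opposite strand, a second one that appears as GCTTAGTCA at -31 to -23. MAFF held an opposite-strand ARE core, GCGGGGTCA, at -122 to -114. KEAP1 and MAFF had 2 windows each and BACH1 had 3, and the matches lay in 1 window of each gene. No match lay in the windows of MAFG, NFE2L2 or NFE2L1, which says only that these letters are not within 250 bases. The ARE core was present in 10.9% of 35116 windows of the same length and in 25.8% of the 31 windows found for NRF2 target genes. The AP-1 type element was present in 6.57% of all windows and in 3.23% of the target windows. A match is a description of the letters and not a bound site.

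The libraries held 19.31 M to 29.62 M counts each (median 25.06 M). Of 10 colon epithelial markers, 9 had a median above 1 CPM and CDX1 had a median of 0.905 CPM. CPM are counts per M counts, unscaled for the marker medians of this paragraph and TMM-scaled elsewhere unless called unscaled. Of 14 markers of other cell types, 10 had a median below 1 CPM, with PTPRC, CD3E, COL1A2, COL3A1, DCN, CDH5 and ALB at a median of 0 and CD68 highest at 6.17 CPM. Summed over all cells of a culture, fewer cells and less RNA per cell cannot be told apart. All sample titles, those of the vehicle included, carry the label BatchC. Sample names begin with a number from 8 to 11 for the extracts and with a C prefix for the vehicle. These numbers are read here as set numbers, though the labels do not say what they stand for. The vehicle shares no number with an extract, so a difference from vehicle and a difference between sets cannot be told apart. The comparison of high with low dose of 1 extract lies within a set and uses no vehicle library, and it is the main comparison here.

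All 8 genes were well measured. Per kilobase of merged exons NFE2L1 had the highest level, with a median of 49.3 CPM per kb over the 60 libraries, and NFE2L2 followed at 21.3 CPM per kb. KEAP1, MAFG and MAFK lay at 16.9, 15.9 and 11.0 CPM per kb. The per-library ranges of KEAP1 (14.0 to 19.3 CPM per kb) and MAFG (14.1 to 22.5 CPM per kb) overlapped, and both overlapped that of NFE2L2 (17.99 to 24.7 CPM per kb). BACH1, OSGIN1 and MAFF were the lowest at 5.76, 4.83 and 2.56 CPM per kb, and the ranges of BACH1 (4.72 to 7.71 CPM per kb) and OSGIN1 (3.81 to 7.99 CPM per kb) overlapped as well. MAFF (2.09 to 4.89 CPM per kb) reached into both of these ranges. Among the small Maf genes the order was therefore MAFG, MAFK, MAFF. The smallest deposited count of any of the 8 genes in any library was 239, for MAFF.

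High against low dose asks what depended on the amount of extract. OSGIN1 and MAFG rose with Poria Cocos, Atractylodis Rhizoma, Glycyrrhizae Radix and Panax Ginseng, the 4 ethanol extracts with replicates, whereas MAFF, BACH1, NFE2L1 and NFE2L2 rose with Glycyrrhizae Radix and passed the threshold in no other extract. A gene is called, and is said to have risen or fallen, at a Benjamini-Hochberg adjusted p below 0.05 over all tested genes in edgeR's quasi-likelihood F test. With Glycyrrhizae Radix, 7 of the 8 genes were called, all higher, where 24.9% of all tested genes were called. With Poria Cocos 2 of 8 were called (1.86% of all genes), with Atractylodis Rhizoma 2 of 8 (3.95%) and with Panax Ginseng 2 of 8 (2.52%). With Palmul-tang 0 of 8 were called by edgeR (0.152% of all genes) and 0 of 8 by DESeq2, with 3 of 8 at an unadjusted p below 0.05 (6.58% of all genes). With Sibjeondaebo-tang 0 of 8 were called by edgeR (0.371%) and 0 of 8 by DESeq2, with 6 of 8 at an unadjusted p below 0.05 (11% of all genes). Over the mean of the 6 extracts 5 genes were called, KEAP1, MAFG, MAFF, BACH1 and OSGIN1, all higher, where 21.4% of all genes were called.

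Cell type markers also moved with dose, most with Glycyrrhizae Radix. There CEACAM5, KRT20 and CDH1 rose (14% of all genes) and VIL1 fell (10.9%) among the 10 epithelial markers. With Atractylodis Rhizoma 1 of the 10 rose (1.93% of all genes) and 1 fell (2.01%). With Panax Ginseng 1 rose (1.29%) and 1 fell (1.23%). None was called with Palmul-tang, Sibjeondaebo-tang or Poria Cocos. With Glycyrrhizae Radix CEACAM5 averaged 15.6 ± 1.92 CPM at the high dose and 6.44 ± 0.46 CPM at the low dose (SD, n = 3 each). VIL1 averaged 121 ± 3.54 CPM at the high dose and 187 ± 7.56 CPM at the low dose (SD, n = 3 each). Of the 14 markers of other cell types, 5 were tested. With Glycyrrhizae Radix 2 of these rose (14% of all genes), CD68 (0.60 ± 0.15 on the log2 scale, SE, adjusted p = 0.00222) and LUM (0.93 ± 0.25, adjusted p = 0.00441). The unscaled sum of all 14 markers was 16.8 to 17.98 CPM in the high-dose libraries and 13.5 to 13.9 CPM in the low-dose libraries. CD3E, COL1A2, DCN, CDH5 and ALB were at 0 in all 6 libraries. The part of these markers in the results was not tested.

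**Figure D1:**
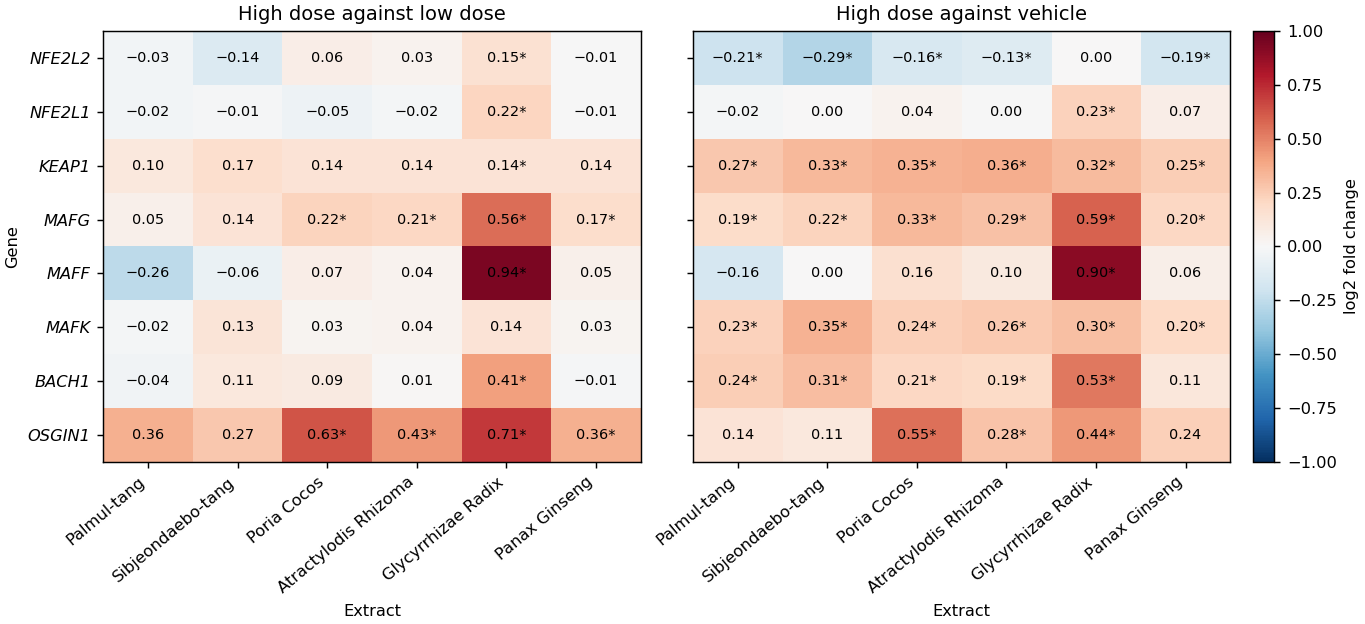
Log2 fold change of the 8 genes (rows) for 6 extracts (columns), high against low dose on the left and high dose against vehicle on the right, with an asterisk where the adjusted p was below 0.05. OSGIN1 is called in 4 extracts and MAFG in 4 on the left, MAFF reaches 0.94 with Glycyrrhizae Radix, and NFE2L2 is below vehicle in 5 extracts on the right.

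NFE2L2, the gene of NRF2 itself, rose with dose in 1 extract. With Glycyrrhizae Radix the 3 high-dose libraries had 144, 138 and 147 CPM, against 131, 127 and 128 CPM at the low dose, and the groups did not overlap. The log2 fold change was 0.15 ± 0.04 (SE, adjusted p = 0.00425). In the other 5 extracts it lay between -0.14 and 0.06 and was not called. With Sibjeondaebo-tang, where the value was lowest, the high-dose libraries had 121, 121 and 108 CPM, against 124, 128 and 132 CPM at the low dose, and the adjusted p was 0.155. The mean log2 fold change of NFE2L2 over the 6 extracts was 0.01 with a 95% interval of -0.02 to 0.05. On the same mean 34 of 35 tested NRF2 target genes, described further on, were higher (11.4% of all genes). That list was chosen with earlier results of these data known.

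NFE2L1 rose in the same extract. With Glycyrrhizae Radix the high-dose libraries had 329, 334 and 326 CPM, against 299, 282 and 269 CPM at the low dose, with no overlap (0.22 ± 0.04 on the log2 scale, SE, adjusted p = 1.42e-05). In the other 5 extracts the log2 fold changes were between -0.05 and -0.01, none called. NFE2L3, another factor of the CNC family and the one gene of its list that passed the filter, had a mean log2 fold change of 0.00 ± 0.01 over the 6 extracts. NFE2 and BACH2 did not pass the filter.

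KEAP1, the inhibitor of NRF2, had small positive values of nearly the same size in every extract. With Atractylodis Rhizoma the high-dose libraries had 71.3, 72.7 and 68.0 CPM, against 64.4, 61.5 and 66.0 CPM at the low dose. With Poria Cocos they had 71.5, 69.6 and 69.0 CPM, against 62.3, 68.7 and 59.1 CPM. With Glycyrrhizae Radix they had 72.2, 65.7 and 67.9 CPM, against 65.2, 60.5 and 61.0 CPM. In all 3 of these extracts every high-dose library lay above every low-dose library.

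The same held for the remaining extracts, so the high-dose libraries of KEAP1 lay above the low-dose ones in 6 of 6 extracts. The share of all tested genes whose libraries separated in that direction was 7.41% for Palmul-tang, 6.61% for Sibjeondaebo-tang, 9.95% for Poria Cocos, 11% for Atractylodis Rhizoma, 19.7% for Glycyrrhizae Radix and 8.15% for Panax Ginseng. KEAP1's log2 fold changes ran from 0.10 with Palmul-tang to 0.17 with Sibjeondaebo-tang. The gene was called in 1 extract alone, Glycyrrhizae Radix (0.14 ± 0.05, SE, adjusted p = 0.0388), and that call was lost without high-dose library 1 (0.10, adjusted p = 0.241) and without each of 3 other libraries in turn. Over the mean of the 6 extracts KEAP1 rose by 0.14 ± 0.02 on the log2 scale (SE, adjusted p = 9.74e-07), and without Glycyrrhizae Radix the mean was also 0.14 (adjusted p = 1.15e-05), where 16.1% of all genes were called.

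**Figure D2:**
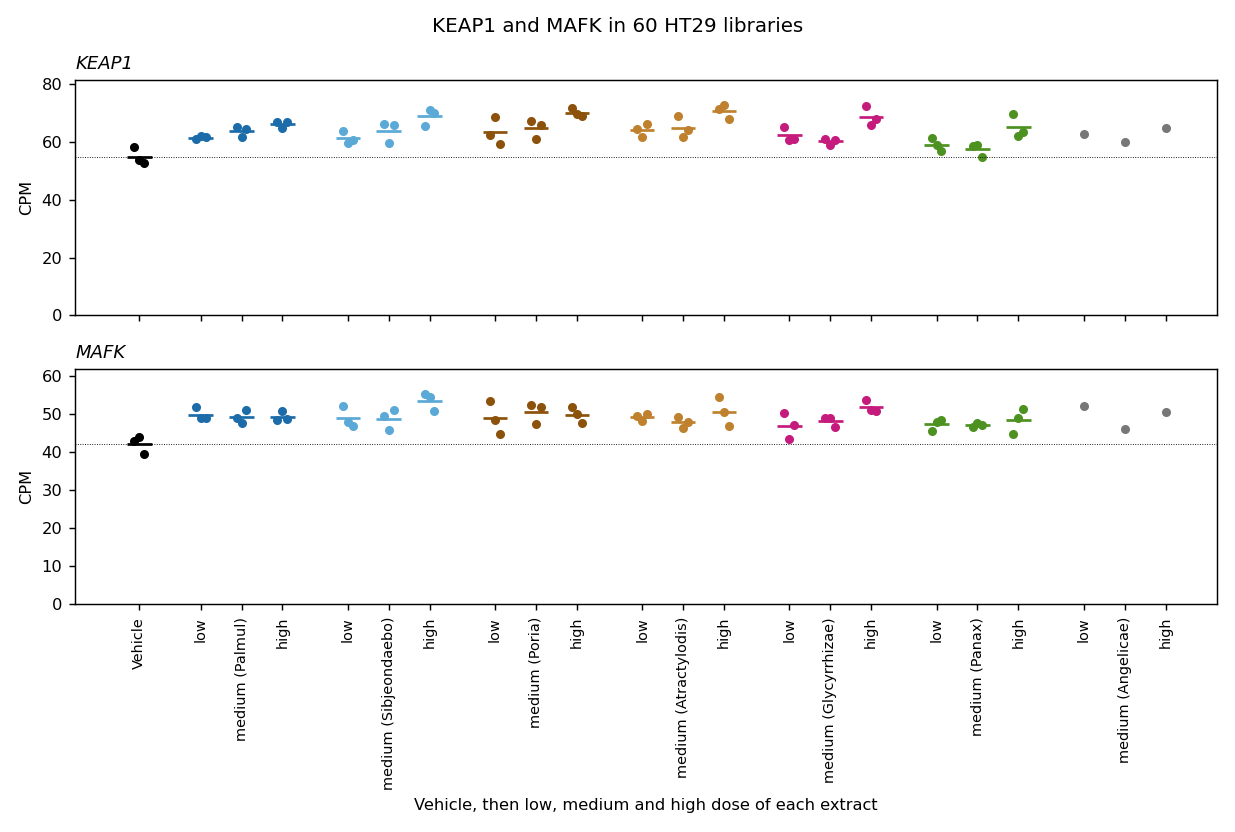
CPM of KEAP1 and MAFK in each library (points) by group, with the vehicle first and then low, medium and high dose of 7 extracts, the group mean as a short line and the vehicle mean as a dotted line. Every KEAP1 high-dose mean of the replicated extracts lies above its medium- and low-dose means, and the vehicle has the lowest mean of both genes.

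MAFG, the most abundant of the small Maf partners per kilobase, rose in 4 extracts. With Glycyrrhizae Radix the high-dose libraries had 117, 118 and 112 CPM, against 80.4, 74.5 and 79.7 CPM at the low dose. The groups were far apart (0.56 ± 0.04 on the log2 scale, SE, adjusted p = 2.37e-15). With Poria Cocos the high-dose libraries had 99.6, 93.4 and 94.996 CPM, against 81.5, 81.9 and 83.1 CPM at the low dose (log2 fold change 0.22 ± 0.04, SE, adjusted p = 0.000782).

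With Atractylodis Rhizoma MAFG had 97.0, 95.2 and 89.1 CPM at the high dose, against 81.9, 80.7 and 80.3 CPM at the low dose (0.21 ± 0.04, SE, adjusted p = 0.000774). With Panax Ginseng it had 90.1, 88.4 and 86.0 CPM at the high dose, against 82.2, 73.7 and 78.3 CPM at the low dose (0.17 ± 0.04, SE, adjusted p = 0.0125). The Panax Ginseng call was lost without high-dose library 1 (adjusted p = 0.0984) and without low-dose library 2 (0.124). In the water extracts the log2 fold changes were 0.05 with Palmul-tang and 0.14 with Sibjeondaebo-tang, neither called. MAFG overlaps SIRT7 on the same strand and AC145207.8 on the opposite strand. All of the other genes overlap annotated genes as well. On the opposite strand, NFE2L2 overlaps AGPS among others, BACH1 overlaps GRIK1 and BACH1-AS1, NFE2L1 overlaps AC004477.2, MAFF overlaps PLA2G6 and MAFK overlaps TMEM184A. KEAP1 and OSGIN1 overlap AC011461.1 and AC009119.2 on the same strand. No source used here gives the strand setting of the authors' counting, so reads of such partners may not be told apart.

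MAFF, an inducible small Maf gene, rose with Glycyrrhizae Radix alone among the 6 extracts. The high-dose libraries had 24.6, 25.5 and 27.5 CPM, against 14.5, 12.4 and 13.2 CPM at the low dose and 13.1, 15.1 and 13.6 CPM at the medium dose. The log2 fold change of high against low was 0.94 ± 0.07 (SE, adjusted p = 1.33e-15), the largest of the 8 genes in any extract. In the other extracts the values were -0.26 with Palmul-tang, -0.06 with Sibjeondaebo-tang, 0.07 with Poria Cocos, 0.04 with Atractylodis Rhizoma and 0.05 with Panax Ginseng. Palmul-tang was the only one of these in which the libraries separated, with 12.3, 11.8 and 12.99 CPM at the high dose, against 14.3, 14.8 and 15.1 CPM at the low dose, and it was not called (adjusted p = 0.19). The share of all genes whose Palmul-tang libraries separated downward was 6.64%. The called mean over 6 extracts (0.13, adjusted p = 0.000783) rested on Glycyrrhizae Radix, since the mean of the other 5 was -0.03 (adjusted p = 0.561).

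MAFK, the remaining small Maf partner, was called in no extract. Its log2 fold changes lay between -0.02 with Palmul-tang and 0.14 with Glycyrrhizae Radix, where the high-dose libraries had 53.6, 51.2 and 50.8 CPM, against 50.2, 43.6 and 47.1 CPM at the low dose (adjusted p = 0.0678). Without low-dose library 1 this value was called (0.19, adjusted p = 0.0238). The mean over the 6 extracts was 0.06 with a 95% interval of 0.01 to 0.10 and an adjusted p of 0.0719. The mean was called in 7 of 36 fits that left out 1 library (adjusted p of 0.0222 to 0.0485).

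BACH1, the repressor of ARE genes, rose with Glycyrrhizae Radix. The high-dose libraries had 52.4, 59.5 and 57.1 CPM, against 40.4, 40.6 and 45.6 CPM at the low dose, with no overlap (0.41 ± 0.05 on the log2 scale, SE, adjusted p = 1.54e-08). With the other extracts BACH1 lay between -0.04 with Palmul-tang and 0.11 with Sibjeondaebo-tang, none called. The called mean of 0.09 over 6 extracts (adjusted p = 0.000782) was 0.03 without Glycyrrhizae Radix (adjusted p = 0.422).

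**Figure D3:**
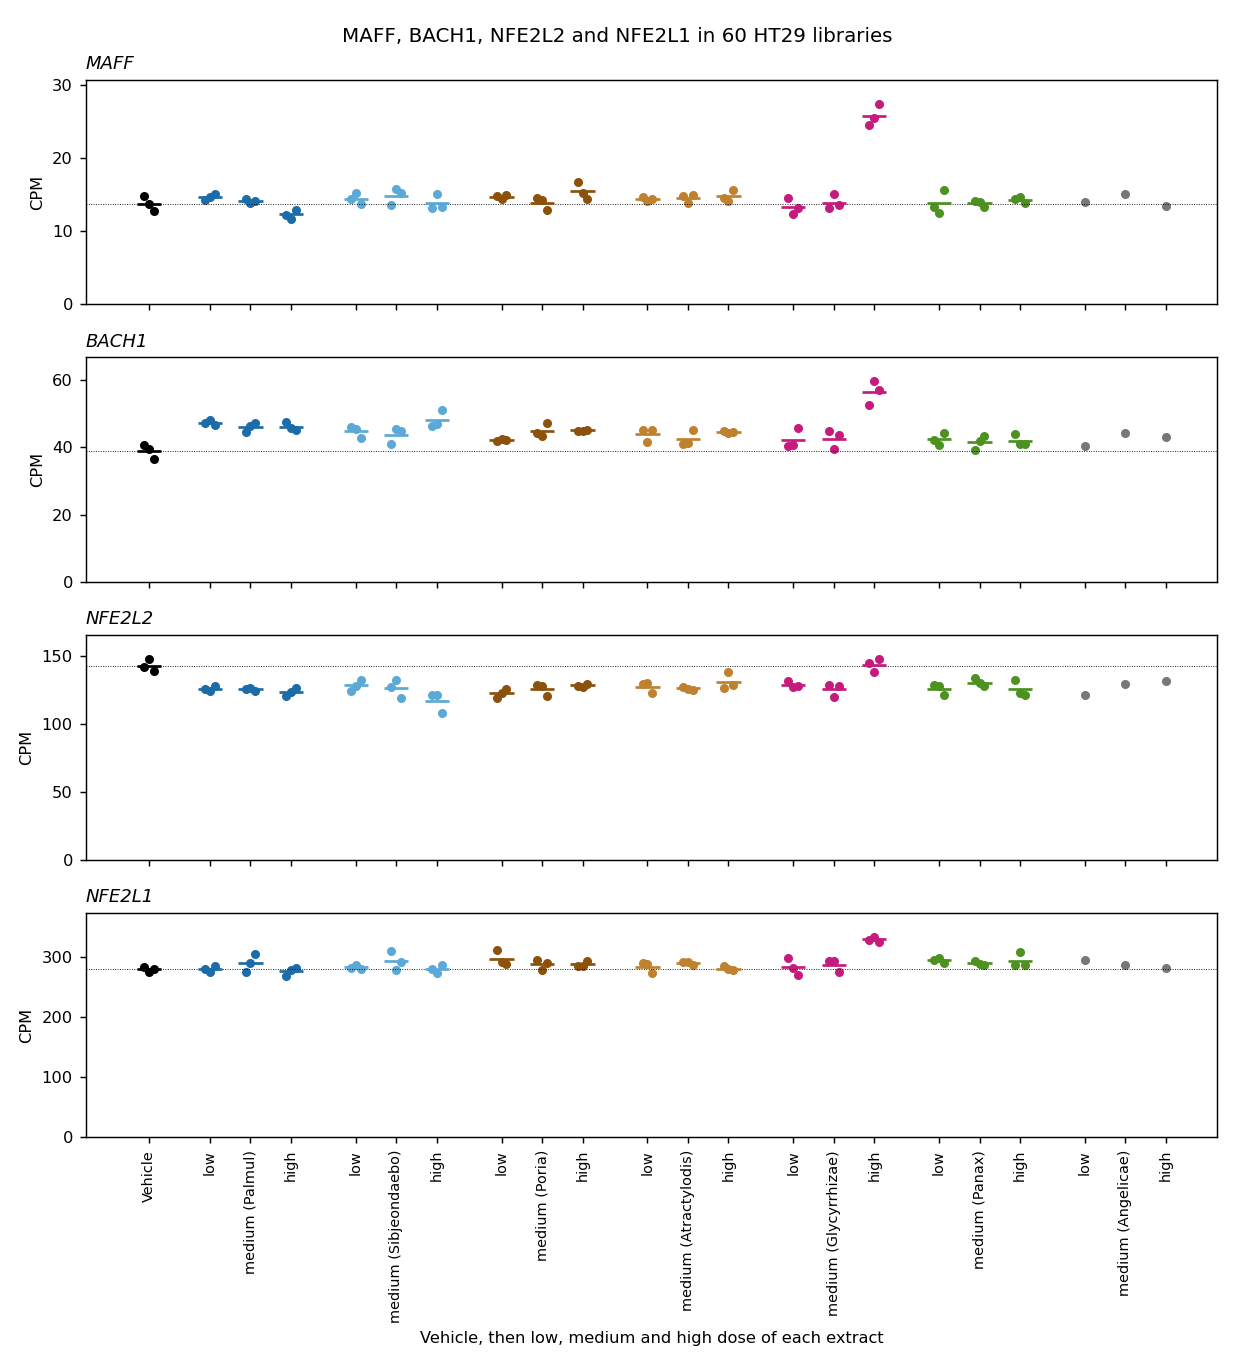
CPM of MAFF, BACH1, NFE2L2 and NFE2L1 in each library (points) by group, with the vehicle first and then low, medium and high dose of 7 extracts, the group mean as a short line and the vehicle mean as a dotted line. The Glycyrrhizae Radix high dose is the highest group for all 4 genes (means of 25.8, 56.3, 143 and 329.5 CPM), and the NFE2L2 groups other than that one lie below the vehicle mean.

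OSGIN1 had the largest rise of the 8 genes in every extract where it was called, except Glycyrrhizae Radix, where MAFF rose more. With Poria Cocos the high-dose libraries had 27.6, 24.1 and 23.1 CPM, against 16.8, 15.3 and 16.2 CPM at the low dose (log2 fold change 0.63 ± 0.09, SE, adjusted p = 1.19e-05). With Glycyrrhizae Radix they had 23.2, 21.5 and 24.1 CPM, against 14.8, 14.2 and 13.2 CPM (0.71 ± 0.10, SE, adjusted p = 1.06e-07). In both extracts every high-dose library stood well above every low-dose library.

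With Atractylodis Rhizoma OSGIN1 had 24.5, 18.8 and 18.8 CPM at the high dose, against 16.3, 15.2 and 14.3 CPM at the low dose (0.43 ± 0.10, SE, adjusted p = 0.00309). The first high-dose library stood above the other two, and without it the value was 0.29 (adjusted p = 0.127). With Panax Ginseng the high-dose libraries had 21.9, 20.1 and 17.7 CPM, against 16.3, 16.2 and 14.1 CPM (0.36 ± 0.10, SE, adjusted p = 0.0384), a call that leaving out any 1 of 5 of the 6 libraries removed (adjusted p of 0.0581 to 0.306).

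In the water extracts OSGIN1 had fitted values of a like size that did not pass the threshold. With Palmul-tang the high-dose libraries had 19.6, 19.7 and 16.8 CPM, against 15.3, 15.2 and 13.2 CPM at the low dose, with no overlap (0.36 ± 0.10, SE, adjusted p = 0.17). With Sibjeondaebo-tang they had 21.0, 16.8 and 16.9 CPM, against 16.8, 14.6 and 14.1 CPM, and the groups overlapped (0.27 ± 0.10, SE, adjusted p = 0.27). Over the mean of the 6 extracts OSGIN1 rose by 0.46 ± 0.04 on the log2 scale (SE, adjusted p = 5.24e-13), and without Glycyrrhizae Radix by 0.41 ± 0.04 (adjusted p = 6.94e-10).

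**Figure D4:**
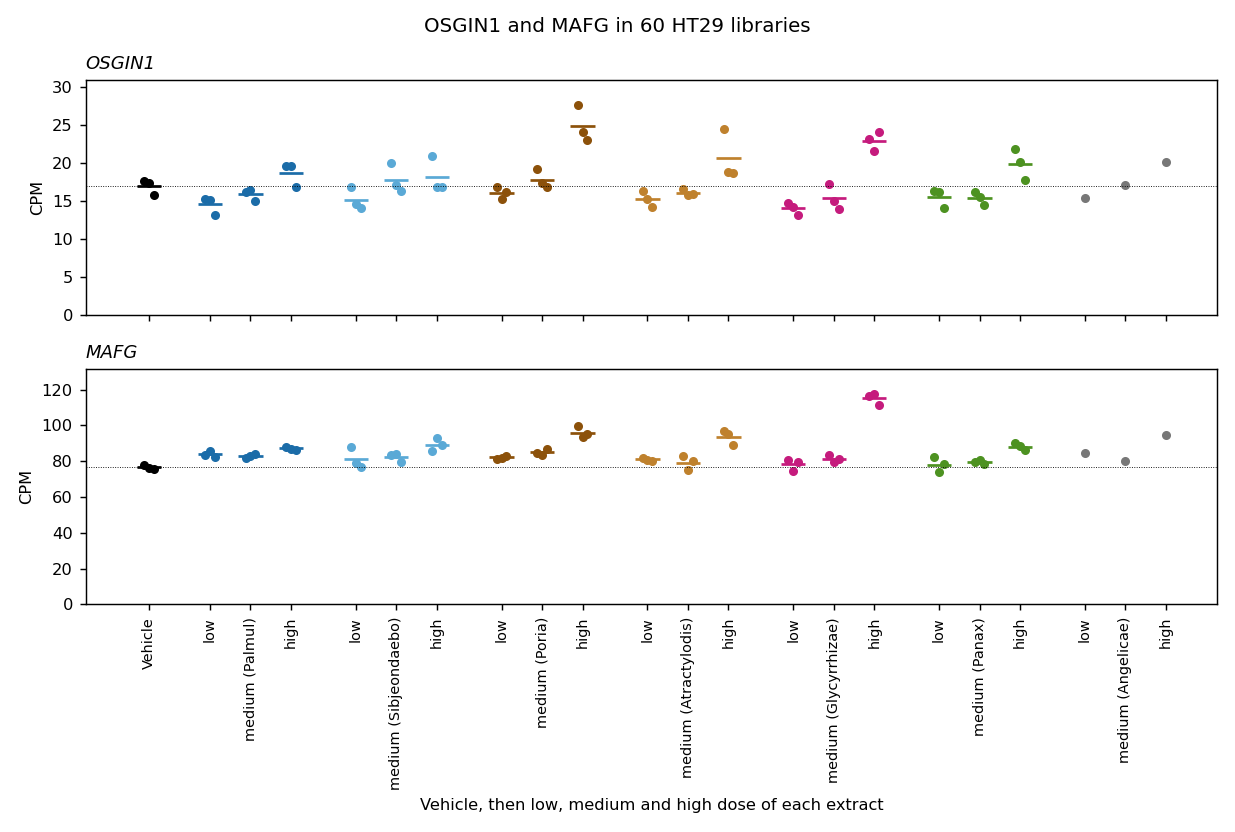
CPM of OSGIN1 and MAFG in each library (points) by group, with the vehicle first and then low, medium and high dose of 7 extracts, the group mean as a short line and the vehicle mean as a dotted line. The high dose is the highest of the 3 group means in all 6 replicated extracts for both genes, and the Glycyrrhizae Radix high dose has the highest MAFG mean (115 CPM) and the Poria Cocos high dose the highest OSGIN1 mean (24.9 CPM).

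Medium against low dose gave 0 called genes of 8 in each of the 6 extracts by edgeR, with 1 of 8 at an unadjusted p below 0.05 for Sibjeondaebo-tang and 0 of 8 for the others. Of all tested genes, 0.00608% were called in each of Palmul-tang, Sibjeondaebo-tang and Atractylodis Rhizoma and 0% in each of the others. The means of OSGIN1 at low, medium and high dose were in rising order in 5 of 6 extracts, among them Glycyrrhizae Radix with 14.1, 15.4 and 23.0 CPM and Poria Cocos with 16.1, 17.8 and 24.9 CPM. KEAP1 and MAFG means were in order in 4 of 6 extracts, those of MAFF and BACH1 in 2 and those of NFE2L2, MAFK and NFE2L1 in 1. For the mean of medium against low dose, OSGIN1 had a log2 fold change of 0.12 (adjusted p = 0.185), the only value of the 8 with an unadjusted p below 0.05 (11.5% of all genes).

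The extracts differed in how far dose moved 5 of the 8 genes. A joint test of whether the high against low effect was equal in the 6 extracts called MAFF (adjusted p = 2.63e-12), MAFG (7.73e-08), BACH1 (5.08e-05), NFE2L1 (0.00162) and NFE2L2 (0.00666), where 12.4% of all genes were called. It did not call OSGIN1 (0.0985), MAFK (0.61) or KEAP1 (0.99). With Glycyrrhizae Radix left out, a choice made after the values were seen, the joint test among the other 5 extracts called 0 of 8 genes by edgeR, where 0.426% of all genes were called. At an unadjusted p below 0.05 there were 3 of 8 (MAFF, NFE2L2 and MAFG), where 5.97% of all genes passed.

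Glycyrrhizae Radix and Panax Ginseng share set 10, and their high doses were 350 and 500 µg/mL. The dose effect of Glycyrrhizae Radix minus that of Panax Ginseng was 0.89 ± 0.10 on the log2 scale for MAFF (SE, adjusted p = 3.87e-09), 0.42 ± 0.08 for BACH1 (4.04e-05), 0.38 ± 0.06 for MAFG (3.31e-06) and 0.22 ± 0.05 for NFE2L1 (0.003). These 4 of 8 genes were called where 12.9% of all genes were. OSGIN1 (0.35, 95% interval 0.07 to 0.63, adjusted p = 0.0911) and NFE2L2 (0.16, interval 0.04 to 0.28, adjusted p = 0.0651) were not called, and for KEAP1 the difference was 0.00 with an interval of -0.15 to 0.15.

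For the pairs that share a set and a dose, no member was called. Poria Cocos minus Atractylodis Rhizoma gave 0 of 8 genes by edgeR for the dose effect (0 of 8 at an unadjusted p below 0.05, and 0.158% of all genes called). The OSGIN1 difference there was 0.20 with a 95% interval of -0.07 to 0.47, and that of MAFG was 0.01 with an interval of -0.11 to 0.13. At 500 µg/mL itself OSGIN1 averaged 24.9 ± 2.40 CPM with Poria Cocos and 20.7 ± 3.29 CPM with Atractylodis Rhizoma (SD, n = 3 each), a log2 difference of 0.27 with an adjusted p of 0.179. Palmul-tang minus Sibjeondaebo-tang gave 0 of 8 for the dose effect by edgeR, with 0 of 8 at an unadjusted p below 0.05. Of all tested genes, 0% were called in that comparison, and 5.23% had an unadjusted p below 0.05.

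The 4 ethanol extracts had larger dose effects than the 2 water extracts for MAFF (difference 0.44 ± 0.06, SE, adjusted p = 3.2e-06), MAFG (0.19 ± 0.04, adjusted p = 0.000245) and NFE2L2 (0.14 ± 0.04, adjusted p = 0.0114), where 3.59% of all genes were called. The water extracts are the 2 formulas of set 8, so solvent, set and herb cannot be told apart. Without Glycyrrhizae Radix the differences were 0.21 for MAFF, 0.11 for MAFG and 0.11 for NFE2L2, with 0 of 8 genes called by edgeR, where 0.407% of all genes were called, and 3 of 8 at an unadjusted p below 0.05, where 6.62% of all genes passed.

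Against vehicle other genes led, and NFE2L2, KEAP1 and MAFK differed already at the low dose in 5 or 6 of 6 extracts. NFE2L2 was lower than vehicle in 5 of 6 high doses. The share of all genes called there was 21.7% for Palmul-tang, 27.4% for Sibjeondaebo-tang, 25% for Poria Cocos, 22.5% for Atractylodis Rhizoma, 34.3% for Glycyrrhizae Radix and 18.9% for Panax Ginseng. The lowest values were those of the Sibjeondaebo-tang high dose, with 121, 121 and 108 CPM, against 142, 148 and 139 CPM in the 3 vehicle libraries (log2 fold change -0.29 ± 0.04, SE, adjusted p = 6.31e-07). The Glycyrrhizae Radix high dose, with 144, 138 and 147 CPM, overlapped the vehicle (0.00, adjusted p = 0.97). The Atractylodis Rhizoma call was lost without vehicle library 2 or high-dose library 1 or 3 (adjusted p of 0.0753 to 0.124). Over all 18 groups of the replicated extracts NFE2L2 was called lower in 17. Here and below every comparison with vehicle used the same 3 vehicle libraries. A count over groups or extracts is therefore not one of independent results. The share of all genes called at the medium dose, extracts in the same order, was 21.1%, 20.1%, 20.6%, 20.7%, 13.1% and 10.1%, and at the low dose it was 20.4%, 20%, 18.5%, 22.4%, 17.6% and 13%.

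KEAP1 was called higher than vehicle in 15 of 18 groups and MAFK in 16 of 18. At the low dose, KEAP1 was called in 5 of 6 extracts, MAFK in 5, BACH1 in 3 and MAFG in 1. The MAFK calls at the high dose of Palmul-tang and Panax Ginseng were lost without vehicle library 3 (adjusted p of 0.0522 and 0.121), and that of Panax Ginseng without high-dose library 3 (0.1). The group means of KEAP1 were 65.0 to 70.7 CPM at the high doses, and KEAP1 averaged 54.9 ± 3.03 CPM in vehicle (SD, n = 3). Those of MAFK were 48.3 to 53.5 CPM at the high doses, and MAFK averaged 42.1 ± 2.33 CPM in vehicle (SD, n = 3). BACH1 was called higher in 11 of 18 groups and MAFG in 9 of 18, while MAFF and NFE2L1 were each called in 1, the Glycyrrhizae Radix high dose (MAFF 0.90 ± 0.07, adjusted p = 1.05e-14, and NFE2L1 0.23 ± 0.04, adjusted p = 3.33e-06, SE). The BACH1 calls at the high dose of Poria Cocos and Atractylodis Rhizoma were lost without vehicle library 3 (adjusted p of 0.0506 and 0.0911).

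OSGIN1 had values of the other sign at the low dose. Its low-dose log2 fold changes against vehicle were negative in 6 of 6 extracts, from -0.27 to -0.08, with adjusted p of 0.0591 to 0.675. At the high dose it was called higher with Poria Cocos (0.55 ± 0.10, SE, adjusted p = 1.87e-05), Glycyrrhizae Radix (0.44 ± 0.10, adjusted p = 0.000401) and Atractylodis Rhizoma (0.28 ± 0.10, adjusted p = 0.0311). The last call was lost without vehicle library 2 (adjusted p = 0.0546), vehicle library 3 (0.149) or high-dose library 1 (0.368), and with Panax Ginseng OSGIN1 was called only without high-dose library 3 among the leave-one-out fits (0.0394).

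The share of counts from mitochondrially encoded protein genes was lower in the treated groups than in vehicle. Group means were 5.59% to 7.40% in the 18 treated groups and 8.71% ± 1.19 in vehicle (SD, n = 3). Like every difference from vehicle, it cannot be told apart from one between sets. High against low dose, 0 of 13 such genes were called in each of the 6 extracts, where 0.152% to 24.9% of all genes were. With the mitochondrial share as a covariate, the number of the 8 genes called against vehicle was 1 in place of 5 for the Palmul-tang high dose and 3 in place of 6 for the Atractylodis Rhizoma high dose. The high-dose calls of BACH1 with Poria Cocos (adjusted p = 0.0836) and of MAFK with Panax Ginseng (0.0743) were lost as well. With Glycyrrhizae Radix the mitochondrial share was 6.34% ± 0.42 at the high dose and 6.26% ± 0.51 at the low dose (SD, n = 3 each).

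Angelicae Gigantis Radix had 1 library per dose, so no test was made. OSGIN1 had 15.5, 17.2 and 20.2 CPM at 12.8, 64 and 320 µg/mL, with exact Poisson intervals, which cover counting error only, of 14.0 to 17.1, 15.5 to 18.95 and 18.2 to 22.3 CPM. The log2 ratio of high to low dose was 0.38, at the 94.1 percentile of all tested genes. MAFG had 84.6, 80.4 and 94.7 CPM at the same doses, a log2 ratio of high to low of 0.16 (percentile 82). NFE2L2 had 121, 129 and 132 CPM, below the vehicle libraries at all 3 doses, and MAFF had 14.1, 15.1 and 13.5 CPM.

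The NRF2 target genes, a list of 36 of which 35 were tested, had more calls and a larger median than the 8 regulators and feedback genes. The list was chosen with earlier results of these data known, so its calls are a description. High against low dose, 33 rose with Glycyrrhizae Radix (14% of all tested genes rose), 27 with Poria Cocos (1.02%), 27 with Atractylodis Rhizoma (1.93%), 24 with Panax Ginseng (1.29%), 12 with Sibjeondaebo-tang (0.195%) and 7 with Palmul-tang (0.103%). Of the 35, 1 gene, IDH1, fell with Atractylodis Rhizoma, where 2.01% of all genes fell. Over the mean of the 6 extracts 34 rose (11.4% of all genes) and IDH1 fell (10.1%), by 0.04 on the log2 scale (adjusted p = 0.0169). The list median over the mean of the 6 extracts was 0.31, against -0.0026 for all tested genes and 0.11 for the 8 regulators and feedback genes. AKR1C2, an aldo-keto reductase, had the largest mean, 1.09 ± 0.03 (SE, adjusted p = 1.52e-30). It averaged 35.03 ± 2.06 CPM at the Atractylodis Rhizoma high dose and 12.3 ± 1.15 CPM at the low dose (SD, n = 3 each). ABCC2, an efflux transporter of conjugates, followed at 1.08 ± 0.09 and AKR1B10, another aldo-keto reductase, at 0.93 ± 0.02.

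**Figure D5:**
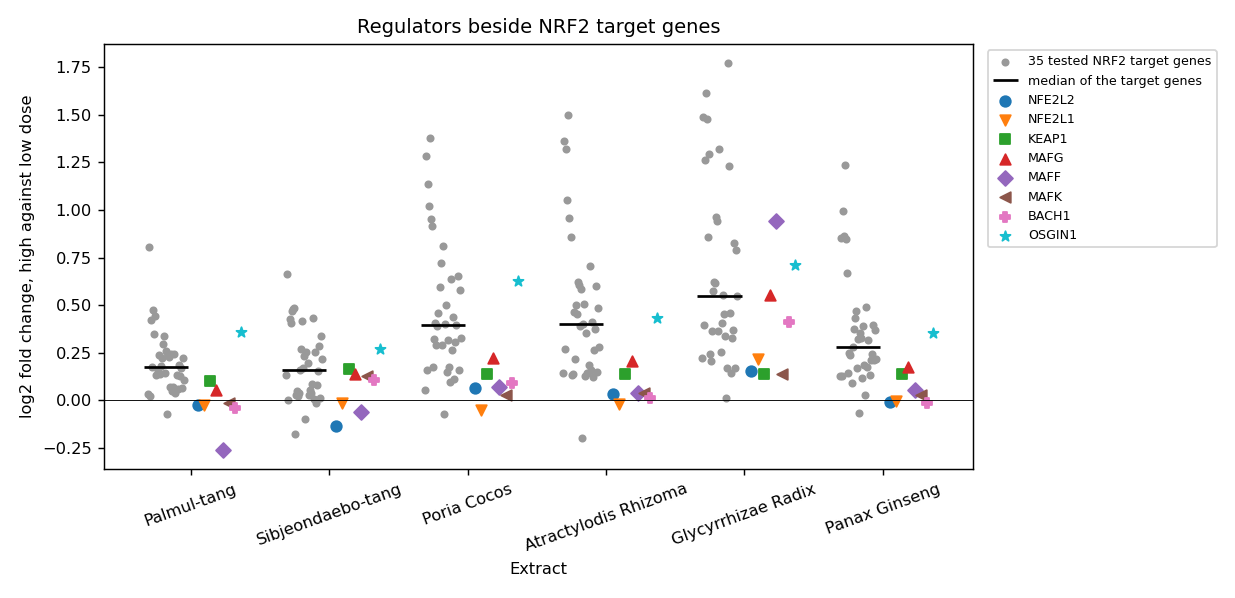
Log2 fold change, high against low dose, of 35 NRF2 target genes (grey points, with their median as a black line) and of the 8 regulators and feedback genes (coloured symbols) in each of 6 extracts. OSGIN1 lies above the target median in every extract, and NFE2L2, NFE2L1 and MAFK lie below it.

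A list of genes that degrade NRF2 or regulate its activity, in either direction, holds 30 genes with 29 tested. With Glycyrrhizae Radix 3 of these genes rose (14% of all genes) and 2 fell (10.9%), with Poria Cocos 1 rose (1.02%), and with Panax Ginseng 1 fell (1.23%). On the mean of the 6 extracts 4 rose (SQSTM1, SYVN1, CDKN1A and BRCA1), where 11.4% of all genes rose, and 2 fell (TRIM21 and USP11), where 10.1% fell. These shares of the list are near those of all genes. SQSTM1 encodes p62, which draws KEAP1 into autophagy and is itself an NRF2 target, and it also stands on the list of targets. It rose by 1.23 ± 0.06 with Glycyrrhizae Radix (SE, adjusted p = 2.8e-21) and by 0.26 ± 0.06 with Poria Cocos (adjusted p = 0.012), with values of 0.00 to 0.17 and no call in the other 4 extracts. SYVN1, the ubiquitin ligase HRD1 of the endoplasmic reticulum, rose with Glycyrrhizae Radix alone (0.66 ± 0.06, adjusted p = 2.25e-13). CUL3, the scaffold of the KEAP1 ligase, had a mean of 0.02 ± 0.02 (adjusted p = 0.518).

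Of 12 tested genes that process or turn over NRF1, the protein of NFE2L1, 4 rose over the mean of the 6 extracts, SYVN1, SEL1L, VCP and RAD23B, where 11.4% of all genes rose. SEL1L, the partner of HRD1, rose by 0.55 ± 0.04 with Glycyrrhizae Radix (SE, adjusted p = 1.13e-15), the extract in which NFE2L1 itself rose, and had values of -0.03 to 0.05 and no call in the other 5. The 32 proteasome subunit genes, the best known NRF1 targets, had small values. Over the mean 20 of 32 rose (11.4% of all genes), led by PSMD14 at 0.11 ± 0.02, with a list median of 0.08. Per extract 5 rose with Panax Ginseng (1.29% of all genes), 2 with Glycyrrhizae Radix (14%) and 2 with Atractylodis Rhizoma (1.93%).

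Of 7 heme and iron genes known to be repressed by BACH1, 6 rose over the mean of the 6 extracts (11.4% of all genes) and 1 fell (10.1%). HMOX1, heme oxygenase, led at 0.59 ± 0.04 (SE, adjusted p = 4.39e-18), followed by the ferritin light chain FTL at 0.34 ± 0.04 and the ferrochelatase FECH at 0.31 ± 0.02. SLC40A1, the iron exporter ferroportin, fell by 0.19 on the log2 scale (adjusted p = 1.4e-08). With Glycyrrhizae Radix 6 of 7 rose (14% of all genes) and 1 fell (10.9%). There HMOX1 averaged 27.9 ± 0.82 CPM at the high dose and 11.1 ± 0.66 CPM at the low dose (SD, n = 3 each), in the same libraries in which BACH1 mRNA was higher. Of these 7 genes, 5 also stand on the list of NRF2 targets.

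The genes whose dose pattern was most like that of each regulator were read from Pearson's r over 12 values, the high and medium against low differences of 6 extracts, among 10648 genes. Each pair of values of an extract shares its low-dose libraries, so r is a description without a test. The highest r among 10648 genes is also high by selection. MAFG was most like SLC7A11 (r = 0.99) and SLC3A2 (r = 0.98), which together form the cystine and glutamate exchanger, and r without Glycyrrhizae Radix was 0.97 and 0.93. OSGIN1 was most like ALDH3A1 (0.95), PFKP (0.95) and TKT (0.94), and without Glycyrrhizae Radix these values were 0.92 to 0.93. KEAP1 was most like ABCB6 (0.92), ME1 and NCEH1 (0.90 each), with 0.88 to 0.94 without Glycyrrhizae Radix. MAFF was most like ITGA3, TMBIM1 and ABLIM3 (0.98 each), and without Glycyrrhizae Radix these values were 0.71 to 0.76. BACH1 was most like COG3 (0.98), NFE2L1 most like ATG13 (0.97) and NFE2L2 most like HDHD3 (0.90). Without Glycyrrhizae Radix, the 1 extract in which these 3 regulators were called, the values were 0.91, 0.88 and 0.85.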

How the data were processed

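Strand-specific RNA libraries of 60 HT29 samples, taken after 24 h of treatment, were sequenced with paired reads of 100 bases, per the labels' protocols. The values are expected counts per gene, deposited by the authors, who made them with RSEM 1.3.3 from reads checked with FastQC 0.11.9, trimmed with Trim Galore 0.6.5 and aligned by STAR 2.7.3a (hg38), as the submitters' processing notes say. Neither the annotation release nor the strand setting of the counting is given in the sources used here. In each library 7.7% to 9.78% of the values had decimals, and all were rounded to whole counts. Another 213 sample columns were not used. For the vehicle, the labels state 0.1% DMSO but the series text states 2%.

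The 57 libraries of the 19 groups of 3 were fitted together with edgeR 4.0.16 (R 4.3.3), with TMM factors of 0.956 to 1.031, filterByExpr and its quasi-likelihood F test (38 residual degrees of freedom). Each of 40 comparisons was adjusted by Benjamini-Hochberg over 16445 genes. CPM use the TMM factors of all 60 libraries. The self-test on simulated data recovered known changes, but none planted was as small as the smallest changes called here. Log2 ratios of single libraries used a prior count of 2. Replicates differed by more than sampling noise, with a chi-square of at least 2.4 per degree of freedom, and each counted once. The 8 genes and all gene lists were chosen with earlier results of these data known. Besides the 8, up to 3 called genes with the largest mean change were named per list, and up to 3 genes most like each of the 7 members called in an extract by Pearson's r at a minimum of 5 CPM. IDH1, CUL3, NFE2L3, SLC40A1, CDKN1A, BRCA1, USP11 and RAD23B were named after their values were seen. Coordinates come from GENCODE 29 on GRCh38, and promoter sequences from RefSeq on GRCh38.p14. Results were recomputed with RLE factors, without the filter on low counts, with DESeq2 1.42.0, with 6 libraries alone, a replicate block, the mitochondrial share as a covariate and each high-dose, low-dose and vehicle library left out in 39 refits (medium-dose libraries were always kept).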

Additional observations from a re-analysis of the deposited data

Results flagged for a closer look

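The dose effect, the log2 fold change of high against low dose, differed between extracts for several of the 8 genes by a test of the difference itself. Between the ethanol and the water extracts it differed by 0.44 for MAFF, 0.19 for MAFG and 0.14 for NFE2L2, each higher on the mean of the ethanol extracts. Solvent, set and herb cannot be told apart there. Without Glycyrrhizae Radix, a choice made after the values were seen, 0 of 8 genes were called (0.407% of all genes). At an unadjusted p below 0.05 there were 3 of 8 (6.62% of all genes). Between Glycyrrhizae Radix and Panax Ginseng the dose effect differed by 0.89 for MAFF, 0.42 for BACH1, 0.38 for MAFG and 0.22 for NFE2L1, each higher with Glycyrrhizae Radix. In the joint test over 6 extracts the highest and the lowest dose effect lay 1.20 apart for MAFF, 0.50 for MAFG, 0.45 for BACH1, 0.29 for NFE2L2 and 0.27 for NFE2L1. The highest was Glycyrrhizae Radix for all 5 genes. The lowest was Palmul-tang for MAFF, MAFG and BACH1, Sibjeondaebo-tang for NFE2L2 and Poria Cocos for NFE2L1. Groups of 3 libraries are too small for a test of single outlying libraries.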

How the results depend on the processing

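High against low dose, the number of the 8 genes called changed as follows. For Palmul-tang it was 1 without the filter on low counts and 1 with the replicate block, in place of 0, the gene being OSGIN1 (adjusted p = 0.00169 and 0.00161). For Sibjeondaebo-tang it was 1 with the replicate block in place of 0 (OSGIN1, adjusted p = 0.0284), and 0 to 1 with a library left out. For Panax Ginseng it was 1 without the filter and 0 with the 6 libraries alone in place of 2, and 0 to 2 with a library left out. For Atractylodis Rhizoma it was 1 to 2 with a library left out. Over the mean of 6 extracts it was 3 in place of 5 with Glycyrrhizae Radix left out, chosen after the data were seen, where MAFF reversed to -0.033. KEAP1 with Glycyrrhizae Radix had an adjusted p of 0.121 without the filter. KEAP1 was called with Atractylodis Rhizoma under the mitochondrial covariate (0.0433) and with Poria Cocos without low-dose library 2 (0.0367), and MAFG with Sibjeondaebo-tang without low-dose library 1 (0.0195). MAFK was called with Glycyrrhizae Radix under the replicate block (0.0496). Its mean over 6 extracts was called without Sibjeondaebo-tang low 1 or high 3, Poria Cocos low 1 or high 3, Atractylodis Rhizoma high 3, Glycyrrhizae Radix low 1 or Panax Ginseng high 1. Against vehicle, with the mitochondrial share as a covariate, the number of the 8 genes called was 1 in place of 5 for Palmul-tang and 3 in place of 6 for Atractylodis Rhizoma. The calls of BACH1 with Poria Cocos (adjusted p = 0.0836) and of MAFK with Panax Ginseng (0.0743) were lost too. Of 104 values of single genes, RLE factors and DESeq2 each kept direction and call in 103, the replicate block in 100, no filter in 98 and the covariate in 93. The 6 libraries alone kept 89 of 96. Deviations of same-numbered libraries correlated at -0.11 to 0.189, and the main fit did not pair them. High against low dose, all 3 libraries correlated best with their own number for Sibjeondaebo-tang and for Panax Ginseng. In each of the other extracts 1 library did. Whether the numbers pair the libraries is not settled by these values. The cause of these changes was not tested. Of all genes, the number called high against low dose was 115, 341 and 519 without the filter for Palmul-tang, Sibjeondaebo-tang and Poria Cocos, in place of 25, 61 and 306. With the replicate block it was 52, 119, 465 and 623 for those 3 and Panax Ginseng, in place of 25, 61, 306 and 415. With the 6 libraries alone it was 9, 92, 341 and 115 for Sibjeondaebo-tang, Poria Cocos, Atractylodis Rhizoma and Panax Ginseng, in place of 61, 306, 649 and 415, and with DESeq2 it was 114 for Sibjeondaebo-tang in place of 61. With 1 library left out it was 12 to 16 for Palmul-tang (each of 6), 23 to 92 for Sibjeondaebo-tang (lowest without low 2 or 3, 29 without high 3, highest without low 1), 146 to 253 for Poria Cocos (lowest without high 1, and 168 to 178 without high 2, high 3 or low 3), 377 to 544 for Atractylodis Rhizoma (lowest without high 1, 400 without low 3, 424 without high 3) and 205 to 420 for Panax Ginseng (lowest without high 1, 246 without low 3). Against vehicle, the covariate gave 1366, 2103, 2491 and 1973 for Palmul-tang, Sibjeondaebo-tang, Poria Cocos and Atractylodis Rhizoma, in place of 3566, 4499, 4114 and 3704, and the 6 libraries alone gave 2655 for Sibjeondaebo-tang and 1806 for Panax Ginseng, in place of 4499 and 3106. Without vehicle library 3, the Palmul-tang, Sibjeondaebo-tang, Atractylodis Rhizoma and Panax Ginseng numbers were 2138, 2987, 2310 and 2034, in place of 3566, 4499, 3704 and 3106.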
